A study of Rattus norvegicus with 12 samples.

Results

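Resting adventitial fibroblast genes were followed in whole urinary bladder of the rat after complete spinal cord transection. The set holds 8 genes: Pi16, Dpt, Clec3b, Cd34, Mamdc2, Myoc, Gsn and Mfap5. They were chosen by name as genes typical of quiescent fibroblasts in the adventitia, out of 40154 genes in the count table. Earlier results of these data were known when they were chosen. All 8 were found and all 8 passed the filter on low counts. Bladder tissue of female Wistar rats aged 10 to 12 weeks was sequenced in 12 libraries: 3 from rats labelled as normal controls, for which the labels mention no sham operation, and 3 each from rats 7, 14 and 28 days after complete transection, at T10 by the treatment protocol and T9-T10 by the series text. The label check on these members gave a mixed answer: all 8 were well detected in the control bladder, but after injury they did not move as 1 group. The labels do not say whether each library came from a separate rat, so p-values measure the spread between these libraries, which may be partly technical. In whole tissue, fewer cells of a type and less RNA per cell cannot be told apart.

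The adventitia is the loose outer connective tissue of hollow organs and vessels, and its fibroblasts lie along vessels and collagen bundles. In many tissues these cells are recognised by Pi16, Dpt, Cd34 and Clec3b, and they are regarded as a reserve population from which matrix-producing fibroblasts can arise after injury. The products of the genes fall into 3 roles. Pi16 and Cd34 encode cell-surface proteins. Dpt, Mfap5, Clec3b, Mamdc2 and Myoc encode proteins that are secreted into or bind the extracellular matrix, and Gsn encodes gelsolin, which severs and caps actin filaments.

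The libraries held 26275314 to 30747936 counts. Haemoglobin genes made up 2.9% of counts in day 7 replicate 3 and 0.036 to 0.371% elsewhere, and mitochondrial genes 4.29 to 4.86% at day 7 and 5.55 to 7.07% in the other groups. Day 7 replicate 1 and day 28 replicate 2 held more adipocyte marker RNA than the others of their groups, and the values without them are given further on.

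At day 7, Pi16 and Mfap5 rose 2.53-fold and 2.39-fold, Gsn fell to 16.9% of control, Myoc to 6.68% and Mamdc2 to 4.62%, while Dpt, Cd34 and Clec3b did not pass the test. Both rises depended on single libraries. The Pi16 call was lost without any 1 of the controls or day 7 replicate 1 or 3, and that of Mfap5 without control replicate 1. By day 14 Mfap5 was back at 1.01 times control and Gsn at 62.7% of control. Pi16 stood at 2.57 times control at day 14, which did not pass the test, and 2.43 times at day 28, which passed only just and depended on single libraries. Its unadjusted p in edgeR was 0.0071 at day 7, 0.00653 at day 14 and 0.00925 at day 28. Adjustment is harsher where fewer genes are called, which was 2.45% of all genes at day 14, 26.1% at day 7 and 18.5% at day 28. Mamdc2 and Myoc were still at 16.7% and 16.1% of control at day 28. A gene was called changed at an adjusted p under 0.05 in edgeR's quasi-likelihood test, with Benjamini-Hochberg adjustment over the 17687 genes tested, and fold changes are given as log2 with their standard error (SE).

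The stretches of 250 bases before the transcription start are shown for 4 members that took different courses, so that their promoters can be set side by side: Mamdc2 and Myoc, which fell, Mfap5, which rose at day 7, and Dpt, which was not called. They are RefSeq sequences on the GRCr8 assembly, written 5′ to 3′ on the strand of the gene, at chr1:230443015-230443264 (minus strand) for Mamdc2, chr13:77509713-77509962 (plus) for Myoc, chr4:157399669-157399918 (plus) for Mfap5 and chr13:79656091-79656340 (plus) for Dpt. Capitals mark every match, on either strand, to 6 short motifs: the TATA box TATAAA, the AP-1 motif TGANTCA, the E-box CAGCTG, the TEAD motif CATTCC, the GC box GGGCGG and the CCAAT box CCAAT.
Mamdc2: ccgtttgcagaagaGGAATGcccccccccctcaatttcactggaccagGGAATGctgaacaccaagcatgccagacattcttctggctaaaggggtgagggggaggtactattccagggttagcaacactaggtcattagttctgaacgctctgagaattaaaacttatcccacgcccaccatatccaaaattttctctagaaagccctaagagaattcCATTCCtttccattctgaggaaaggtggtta
Myoc: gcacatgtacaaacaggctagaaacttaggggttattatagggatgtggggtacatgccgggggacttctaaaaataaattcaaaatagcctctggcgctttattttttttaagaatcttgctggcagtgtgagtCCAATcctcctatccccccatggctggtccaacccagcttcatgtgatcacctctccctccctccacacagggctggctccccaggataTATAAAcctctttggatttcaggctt
Mfap5: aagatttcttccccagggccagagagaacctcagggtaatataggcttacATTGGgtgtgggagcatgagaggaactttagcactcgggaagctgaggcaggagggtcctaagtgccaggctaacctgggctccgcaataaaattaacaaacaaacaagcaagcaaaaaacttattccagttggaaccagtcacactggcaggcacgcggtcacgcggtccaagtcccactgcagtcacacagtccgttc
Dpt: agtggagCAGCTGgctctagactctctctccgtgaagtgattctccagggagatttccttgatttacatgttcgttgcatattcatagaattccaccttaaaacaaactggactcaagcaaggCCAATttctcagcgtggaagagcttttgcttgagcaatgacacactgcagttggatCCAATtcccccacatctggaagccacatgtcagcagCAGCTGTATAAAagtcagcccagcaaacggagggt
The Mamdc2 stretch held 3 TEAD motif matches, whose first bases lay 236, 202 and 31 bases before the start, and the motif was present in 12.1% of 33469 RefSeq promoters of the same length. Myoc and Dpt each had a TATA box, 26 and 29 bases before the start, against 12.9% of all promoters, and in Dpt it directly followed an E-box, a motif found in 12.0% of all. A CCAAT box, present in 34.0% of all, was found once in Mfap5, once in Myoc and at 2 places in Dpt. The GC box is held by 30.5% of all promoters, and none of these 4 stretches had one. Among the members not shown, the entry of Cd34 had 1 and that of Gsn had 3. The AP-1 letters, found in 6.34% of all, were in none of the 7 members that had a promoter entry, of which those of Pi16 and Gsn do not begin at the gene's start.

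Pi16 (chr20:6923176-6932786, plus strand, rn6) encodes a cell-surface protein of the CAP superfamily and is a widely used marker of adventitial fibroblasts. Its level in CPM, the read count scaled to the size of the library, was 93.1, 80.1 and 116 in controls 1 to 3, 327, 195 and 210.1 at day 7, 157, 269 and 316 at day 14, and 185, 403 and 114 at day 28. Every library of days 7 and 14 lay above every control, but at day 28 the third library lay just below the highest control. The log2 change was 1.34 ± 0.41 (SE) at day 7, with an adjusted p of 0.0326 in edgeR. It was 1.36 ± 0.41 at day 14, where the adjusted p of 0.106 did not pass, and 1.28 ± 0.41 at day 28, at 0.04998. The day 28 value stands at the threshold: it was lost without any 1 of the controls, without day 28 replicate 1 or 2, with a stricter filter (a mean of at least 5 CPM), and in the fit to those groups alone, and without day 28 replicate 2 the change was 0.63. The day 7 call was lost without any 1 of the controls and without day 7 replicate 1 or 3, where the adjusted p reached 0.11, while at day 14 Pi16 passed in the fit to those groups alone and in DESeq2. The authors' deposited fold changes for non-coding RNA list this gene through 1 transcript, annotated as non-coding, with the same counts. For that transcript they give log2 changes of 1.53 (q = 1.19e-18), 1.46 (q = 0.00138) and 1.38 (q = 0.0636) at days 7, 14 and 28.

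Cd34 (chr13:113691842-113711259, plus) encodes a sialomucin of the cell surface that is carried by adventitial fibroblasts and also by endothelium. It measured 101, 102 and 124 CPM in the controls, 146, 90.7 and 83.7 at day 7, 63.7, 104 and 73.5 at day 14, and 79.1, 113 and 61.7 at day 28. The groups overlapped at every time. The log2 changes were -0.03 ± 0.26, -0.44 ± 0.26 and -0.37 ± 0.26, with adjusted p of 0.946, 0.42 and 0.372 in edgeR. Since endothelium also carries this gene, its level can be set against Pecam1, an endothelial adhesion molecule. Cd34 per Pecam1 was 2.56 to 2.93 in controls, 0.775 to 1.04 at day 7, 1.3 to 1.84 at day 14 and 0.904 to 1.19 at day 28. Injured and control libraries did not overlap in this ratio, and each comparison reached p = 0.1 in a two-sided exact permutation test, the smallest p that 3 against 3 allows. Beside this, 10 of 11 tested endothelial markers rose at day 7, 0 at day 14 and 8 at day 28. Their summed level was 360.5 to 387 CPM in controls and 1056 to 1123 at day 7, and their part in the Cd34 values was not tested.

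Among the matrix genes, Dpt (chr13:83073307-83102404, plus) encodes dermatopontin, a small protein that binds decorin and collagen fibrils. It measured 404, 287 and 502 CPM in the controls, 554, 308 and 259 at day 7, 280.1, 373 and 317 at day 14, and 283, 302 and 242 at day 28. The highest of the 12 libraries was 1 of day 7, and every injured group overlapped control. The log2 changes of -0.09 ± 0.27, -0.30 ± 0.27 and -0.53 ± 0.27 had adjusted p of 0.842, 0.627 and 0.204 in edgeR.

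Mfap5 (chr4:155313671-155336228, plus), a microfibril-associated glycoprotein that binds fibrillin, had a transient course. It was at 73.4, 95.7 and 109 CPM in controls, 199.9, 245 and 221 at day 7, 63.1, 110.1 and 106 at day 14, and 76.8, 110.2 and 42.9 at day 28. The 3 libraries of day 7 stood above all 9 others. The rise of 1.26 ± 0.30 log2 at day 7 had an adjusted p of 0.0109 in edgeR, and it just failed without control replicate 1, at 0.0513. Days 14 and 28 gave 0.01 ± 0.30 and -0.27 ± 0.30, neither of which passed. From day 7 to day 14 the gene fell by 1.25 ± 0.30 log2, with an adjusted p of 0.0152, a call lost without day 7 replicate 2 or day 14 replicate 1. From day 7 to day 28 it fell by 1.53 ± 0.31, at 0.00622.

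Clec3b (chr8:132241016-132248066, plus) encodes tetranectin, a secreted lectin-like protein that binds plasminogen. Its values were 118, 92.9 and 119 CPM in controls, 125, 69.4 and 54.0 at day 7, 48.7, 65.0 and 58.4 at day 14, and 68.6, 98.9 and 54.1 at day 28. All day 14 libraries were below all controls, whereas 1 library of day 7, at 125, lay above all controls. At day 28, 1 library, at 98.9, lay within the control range. The log2 changes were -0.41 ± 0.29, -0.94 ± 0.29 and -0.58 ± 0.29, and none passed, at adjusted p of 0.316, 0.114 and 0.194 in edgeR. The result at day 7 rested on 1 library: without day 7 replicate 1 the change was -0.85 and the adjusted p 0.0244. At day 14 Clec3b passed in the fit to those groups alone and in DESeq2.

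Mamdc2 (chr1:241071110-241223798, minus), which encodes a secreted proteoglycan with MAM domains, had the largest fall of the 8 genes at day 7. It measured 121, 98.1 and 122 CPM in the controls, 11.7, 2.82 and 1.19 at day 7, 39.5, 27.6 and 37.6 at day 14, and 21.0, 13.0 and 22.8 at day 28. All 9 injured libraries lay below all controls, and the lowest held 33 reads of the gene. The log2 change of -4.44 ± 0.62 at day 7 (adjusted p = 0.000574, edgeR) is a 21.7-fold fall, and without day 7 replicate 1, the highest of its group, the change was -5.82. At day 14 the change was -1.70 ± 0.54, a 3.25-fold lower level without overlap, but it did not pass at 0.126 outside the fit to those groups alone. At day 28 the change was -2.58 ± 0.56, at 0.00899. Between injury times, day 14 exceeded day 7 by 2.74 ± 0.58 log2 (adjusted p = 0.00851) and day 28 exceeded day 7 by 1.86 ± 0.57 (0.0429). The latter call was lost in the fit to those groups alone and without day 7 replicate 2 or 3 or day 28 replicate 1 or 3, and without day 7 replicate 1 both differences were larger, at 4.12 and 3.23.

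Myoc (chr13:80517531-80527928, plus) encodes myocilin, a secreted glycoprotein with an olfactomedin domain, best known from the eye. It was the least abundant member, at 19.2, 24.2 and 33.2 CPM in controls, 3.48, 0.765 and 0.869 at day 7, 3.42, 2.75 and 4.07 at day 14, and 2.4, 3.3 and 6.61 at day 28. All 9 injured libraries lay below all controls, and the lowest held 22 reads. The log2 change was -3.90 ± 0.57 at day 7 (adjusted p = 0.000678, edgeR), -2.90 ± 0.53 at day 14 (0.0233) and -2.63 ± 0.52 at day 28 (0.00562). The day 14 call was lost without any 1 of the controls and without day 14 replicate 2 or 3, where the adjusted p reached 0.0916. Unlike for Mamdc2, the difference of day 14 from day 7 did not pass (1.00 ± 0.54, adjusted p = 0.218), nor did that of day 28 from day 7 (1.27 ± 0.54, 0.124). Without day 7 replicate 1 both passed, at 2.06 and 2.32, and the change at day 7 was -4.97.

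Gsn (chr3:14456106-14508922, plus) was by far the most abundant member. Gelsolin cuts actin filaments when calcium rises, and the gene is active in smooth muscle as well as in fibroblasts. It measured 3306, 3062 and 3745 CPM in the controls, 742, 512 and 457 at day 7, 1995, 2189 and 2159 at day 14, and 1963, 1259 and 1053 at day 28. The 4 groups did not overlap one another. Gsn fell by 2.56 ± 0.24 log2 at day 7 (adjusted p = 9.6e-05, edgeR) and by 1.24 ± 0.23 at day 28 (0.00406). The day 14 value of -0.67 ± 0.23 did not pass, at 0.147, outside the fit to those groups alone. Day 14 was above day 7 by 1.89 ± 0.24 (0.000528) and day 28 by 1.32 ± 0.23 (0.00341).

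**Figure D1:**
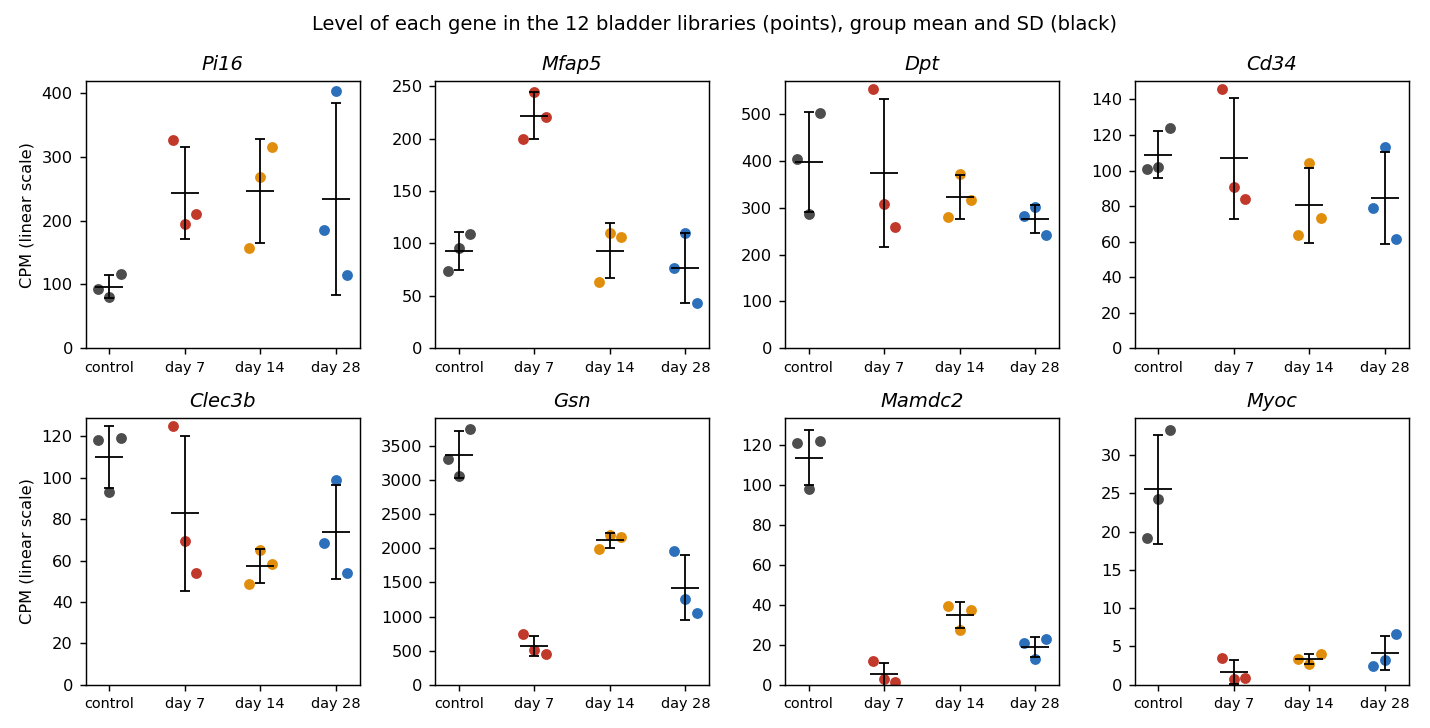
Level of each of the 8 genes in each of the 12 libraries, as CPM on a linear axis from 0, by group (control, day 7, day 14, day 28). Each point is 1 library, and black marks give the group mean and SD. Day 7 libraries are lowest for Gsn, at 457 to 742 CPM, and highest for Mfap5, at 199.9 to 245.

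Of the 8 members, 2 were called higher and 3 lower at day 7, with a median log2 change of -0.25. The background at that time was 26.1% of the 17687 genes called, 15.6% higher and 10.5% lower, around a median of -0.006. At day 14 Myoc was the 1 member called, lower, where 2.45% of all genes were called, 1.45% higher and 0.995% lower. The median of the 8 was then -0.56. At that time Pi16, Clec3b, Mamdc2 and Gsn had unadjusted p of 0.00653, 0.00738, 0.00925 and 0.013 in edgeR, but did not pass after adjustment. At day 28, 1 member was called higher and 3 lower, with a median of -0.55, against 18.5% of all genes called, 11% higher and 7.51% lower. These 3 comparisons share the same controls.

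Between injury times the members also went in both directions. From day 7 to day 14, Mamdc2 and Gsn were called higher and Mfap5 lower, against 19.5% of all genes called, 7.59% higher and 12% lower. From day 7 to day 28 the same 3 genes were called in the same directions, against 18.7% of all genes called, 7.89% higher and 10.8% lower. From day 14 to day 28, 0 of the 8 were called in edgeR and 0 in DESeq2, and 1, Gsn, had an unadjusted p under 0.05 in edgeR. The background in that comparison was 4.34%, with 3.13% higher and 1.22% lower. Gsn was lower at day 28 than at day 14 without overlap, by 0.57 ± 0.23 log2, at an adjusted p of 0.193, and passed without day 28 replicate 1 (-0.89, 0.0278). Mamdc2 was also lower without overlap, at -0.88 ± 0.54 and 0.411.

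**Figure D2:**
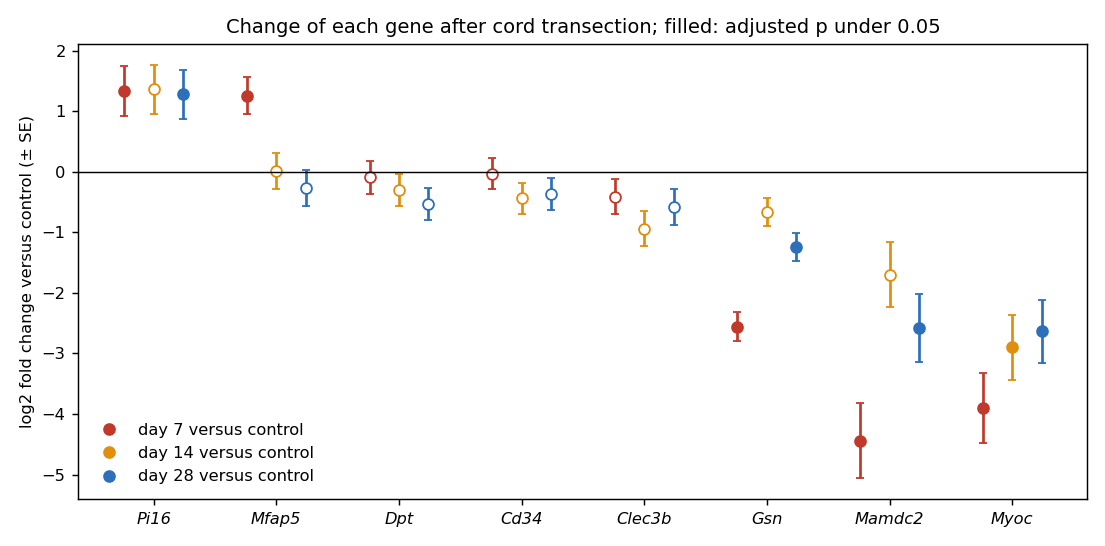
Log2 fold change against control of the 8 genes at days 7, 14 and 28, with bars of 1 SE from edgeR, filled where the adjusted p was under 0.05. Changes run from -4.44 for Mamdc2 to 1.34 for Pi16 at day 7, and Dpt and Cd34 stay within 0.53 of 0 at all times.

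Levels can be compared between genes only per transcript length, for which the deposited TPM values, which scale counts to transcript length and library, were used. In controls Gsn led at a mean of 2424 TPM, followed by Dpt at 412, Mfap5 at 167, Cd34 at 139, Clec3b at 97.3, Pi16 at 81.9, Mamdc2 at 69.6 and Myoc at 25.3. Mfap5 and Cd34 overlapped between libraries, as did Clec3b with Pi16 and Pi16 with Mamdc2, while the other neighbours in this order did not. At day 7 Gsn (379 TPM), Mfap5 (366) and Dpt (359.7) overlapped at the top, and Pi16 had moved up to 191. Mamdc2 (3.05) and Myoc (1.59) then lay below all others. At day 14 the order was Gsn (1561), Dpt (344), Pi16 (215), Mfap5 (172), Cd34 (105), Clec3b (51.9), Mamdc2 (22.0) and Myoc (3.49), with overlap of Pi16 with Mfap5 and of Mfap5 with Cd34. At day 28 Gsn (1045) led again without overlap, while Dpt (291) overlapped Pi16 (203) and the neighbours from there to Clec3b (66.6) overlapped too. Gsn made up 69.4 to 72.5% of the summed TPM of the 8 genes in controls and 24.7 to 26.0% at day 7. Its share returned to 60.6 to 67.5% at day 14 and was 45.2 to 64.8% at day 28.

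Ratios within a library do not depend on how it was scaled. Pi16 per Dpt, in CPM, was 0.231 to 0.279 in controls, 0.59 to 0.812 at day 7, 0.561 to 0.998 at day 14 and 0.471 to 1.33 at day 28. Thus relative to Dpt, which was itself not called, Pi16 was above all controls in all 9 injured libraries, each time at the smallest possible exact permutation p of 0.1. Clec3b per Dpt was 0.238 to 0.324 in controls, 0.209 to 0.225 at day 7 and 0.174 to 0.184 at day 14, again without overlap. At day 28 it was 0.224 to 0.327 and overlapped control (exact permutation p = 0.8). Gsn per Dpt was 7.47 to 10.7 in controls and 1.34 to 1.77 at day 7, without overlap.

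The members' courses were compared by the root mean square (RMS) difference of their centred log2 CPM over the 12 libraries, given as a description since all genes share those libraries. Dpt and Cd34 were the closest pair, at 0.221, followed by Clec3b and Cd34 at 0.364 and Dpt and Clec3b at 0.416. Over all 12 libraries these were the 3 smallest differences between members, although Clec3b per Dpt was lower at days 7 and 14 than in controls. Mamdc2 and Myoc differed by 0.857, and Pi16 and Mamdc2 by 4.05, the most of any pair. Among 11073 other genes with a mean of at least 5 CPM, those nearest to the median course of the 8 were Ddah2 (0.143), Lamb2 (0.15), Aoc3 (0.152), Dnm1 (0.176), Plekha4 (0.196), Fbln1 (0.216), Zfp423 (0.218) and Gnb5 (0.219). Of these, Fbln1 encodes fibulin and Lamb2 a laminin chain, both proteins of the matrix. Nearest to single members were Sema3d (0.376) and Reln (0.379) for Pi16, C1qtnf2 (0.171) and Rtn2 (0.19) for Dpt, Dnm1 (0.248) and Agtr1a (0.257) for Clec3b, and Fgd5 (0.193) and Sh3bp5 (0.195) for Cd34. For Mfap5 they were Fam114a1 (0.166) and Bicc1 (0.184), and for Gsn Rims1 (0.355) and Slc25a23 (0.39). The nearest to Mamdc2 and Myoc lay farther off, and both had the same pair: Ces1f and Aldh3a1, at 0.927 and 0.974 from Mamdc2 and 0.74 and 0.739 from Myoc.

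The fall of Gsn was not even along the gene. The deposited transcript table gives 3 isoforms and, to judge from its values, counts a read for every isoform that holds it, so the gene's count minus an isoform's count gives the reads that lie outside that isoform. Of the gene's 2838 bases, 256 lie outside NM_001004080.1 and 219 outside XM_006234040.2. Reads outside NM_001004080.1 amounted to 15.5, 14.8 and 16.1 CPM in controls, 14.1, 12.0 and 12.2 at day 7, 17.6, 16.3 and 14.1 at day 14, and 15.4, 7.49 and 10.1 at day 28. Reads outside XM_006234040.2 amounted to 129.8, 87.1 and 151 CPM in controls and 21.8, 10.5 and 8.22 at day 7. The former bases had thus 1.21-fold fewer reads at day 7 and the latter 9.09-fold fewer, both without overlap with control at the smallest exact permutation p of 0.1. The former per read of the latter was 0.106 to 0.169 in controls, 0.646 to 1.49 at day 7, 0.187 to 0.247 at day 14 and 0.177 to 0.316 at day 28, without overlap between controls and any injured group. Reads outside XM_006234040.2 were 2.84 to 4.04% of all Gsn reads in controls and 1.8 to 2.93% at day 7. These shares overlapped (exact permutation p = 0.2), so a fall steeper than that of all Gsn reads was not shown there. Reads outside NM_001004080.1 were 0.429 to 0.482% of all Gsn reads in controls and 1.9 to 2.68% at day 7, so the gene's total is set almost entirely by the other bases. Smaller shifts appeared in Dpt, where 15.8 to 17.4% of reads in controls and 19.1 to 20.7% at day 7 lay outside NM_001105965.1, and in Mfap5, where 3.46 to 3.81% and 4.31 to 4.75% lay outside NM_001108644.1. Neither overlapped, each at the smallest exact permutation p of 0.1. The other isoforms with reads outside them, of Pi16, Cd34, Mfap5 and Gsn, overlapped control in this share at day 7. Their exact permutation p was 0.2 to 0.4.

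**Figure D3:**
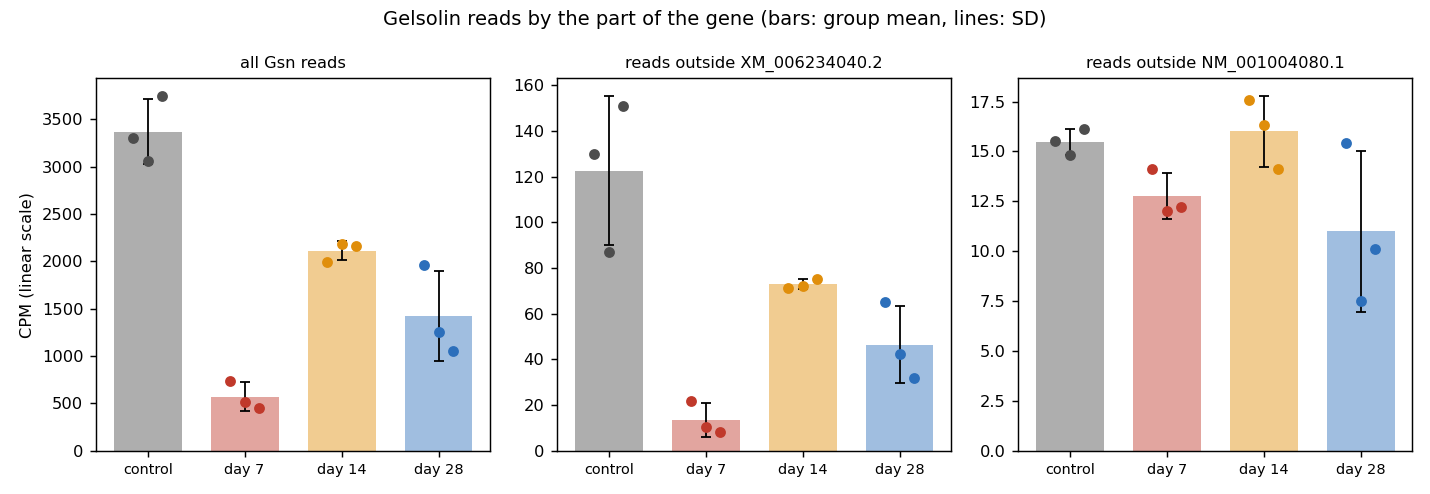
All Gsn reads and those that lie outside each of 2 isoforms, as CPM on linear axes from 0, with points for libraries, bars for group means and lines for the SD. Reads outside NM_001004080.1 stay between 12.0 and 17.6 CPM in all controls and all libraries of days 7 and 14, while those outside XM_006234040.2 go from 87.1 to 151 in controls to 8.22 to 21.8 at day 7.

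By the annotation, 2 members overlap another gene, while reads running in from neighbouring genes or from transcripts outside the annotation were not examined. Dpt and Cd34 each overlap an antisense gene of the annotation, whose summed counts over all libraries were 7 against 117226 for Dpt and 428 against 32608 for Cd34. The other 6 overlap none. Total counts of the members ran from 2952 for Myoc to 640327 for Gsn.

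Of 26 further adventitial fibroblast genes, 22 were tested: 7 rose and 3 fell at day 7, with a median log2 change of 0.43. At day 14, 0 rose and 1 fell, and at day 28, 0 rose and 2 fell. Fbn1, the fibrillin that Mfap5 binds, went from 583 ± 164 (SD, n = 3) to 2288 ± 194 CPM at day 7 (1.97 ± 0.35 log2), and Pcolce, a procollagen C-proteinase enhancer, from 100.1 ± 9.23 to 265 ± 44.9. Abi3bp, a matrix protein, rose by less, 0.65 ± 0.13 log2. Igfbp5, which binds insulin-like growth factors, fell at all 3 times, by 1.09 ± 0.17, 1.35 ± 0.17 and 1.31 ± 0.17 log2. Beside it Adgrd1, an adhesion receptor, and Efemp1, a fibulin of the matrix, fell by 0.95 ± 0.22 and 1.03 ± 0.22 log2 at day 7, and Adgrd1 again at day 28, both named after their values were seen. Like the 8 members, this list holds genes that went up and genes that went down. Of all genes tested, 15.6% were called higher and 10.5% lower at day 7. These shares were 1.45% and 0.995% at day 14, and 11% and 7.51% at day 28.

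Of 14 genes shared by most fibroblasts, 6 rose and 0 fell at day 7, with a median of 0.80, 0 rose and 1 fell at day 14, and 1 rose (Thy1) and 3 fell at day 28. Those that fell later were chosen for naming after their values were seen: Lum, a small proteoglycan, by 1.03 ± 0.19 log2 at day 14 and 0.97 ± 0.19 at day 28, and the collagen chains Col1a1 and Col1a2 by 1.14 ± 0.31 and 0.76 ± 0.22 at day 28. Thy1, a surface glycoprotein, rose by 2.34 ± 0.20 log2, Bgn, the small proteoglycan biglycan, by 2.29 ± 0.26, and the chains Col5a1 and Col6a1 by 1.81 ± 0.28 and 1.45 ± 0.25 at day 7. Of 19 tested genes of activated fibroblasts, 17 rose at day 7, with a median of 3.06, 4 at day 14 (Tgfb1, Grem1, Cthrc1 and Cilp) and 7 at day 28, while 1, Lrrc17, fell at day 28. Among them Grem1, an antagonist of bone morphogenetic proteins, was at 1.54 ± 0.338 CPM in controls and 268 ± 91.7 at day 7 (SD, n = 3 each). Tgfb1, a growth factor that drives matrix production, went from 26.1 ± 0.321 to 83.1 ± 10.7 CPM. Fn1, fibronectin, went from 718 ± 86.0 to 6721 ± 707 CPM, and Adam12, a membrane metalloproteinase, from 54.9 ± 15.1 to 438 ± 118. For comparison, 15.6%, 1.45% and 11% of all genes were called higher at days 7, 14 and 28, and 10.5%, 0.995% and 7.51% lower. The members' median of -0.25 at day 7 thus stood below the medians of all 3 fibroblast lists, a difference that was not tested. That median lies between 2 members called higher and 3 called lower, so it describes no common shift. Members and lists were chosen with earlier results of these data known, so the order of the medians may reflect the choice.

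Genes whose proteins are related to those of the members were counted too. Of 22 tested of 24, 5 rose and 0 fell at day 7, 1 (Glipr1) rose at day 14, and 3 rose (Glipr1, Vil1, Mfap3) and 2 fell (Clec11a, Crispld2) at day 28. The shares of all genes were 15.6% higher at day 7, 1.45% higher at day 14, and 11% higher and 7.51% lower at day 28. The CAP-family genes Glipr1 and Glipr2 rose by 0.83 ± 0.15 and 1.22 ± 0.22 log2 at day 7, whereas the other CAP-family genes tested, named after their values were seen, did not pass: Crispld1 at -1.75 ± 0.60, just above the threshold, Pi15 at -0.34 ± 0.32 and Crispld2 at -0.09 ± 0.17. The olfactomedin-domain genes Olfml2b and Olfm1 rose by 1.29 ± 0.17 and 0.84 ± 0.18. Mfap2, the nearest relative of Mfap5 and named here after its values were seen, did not pass at day 7, at 21.5 ± 6.09 CPM in controls and 26.2 ± 10.3 at day 7 (SD, n = 3 each).

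**Figure D4:**
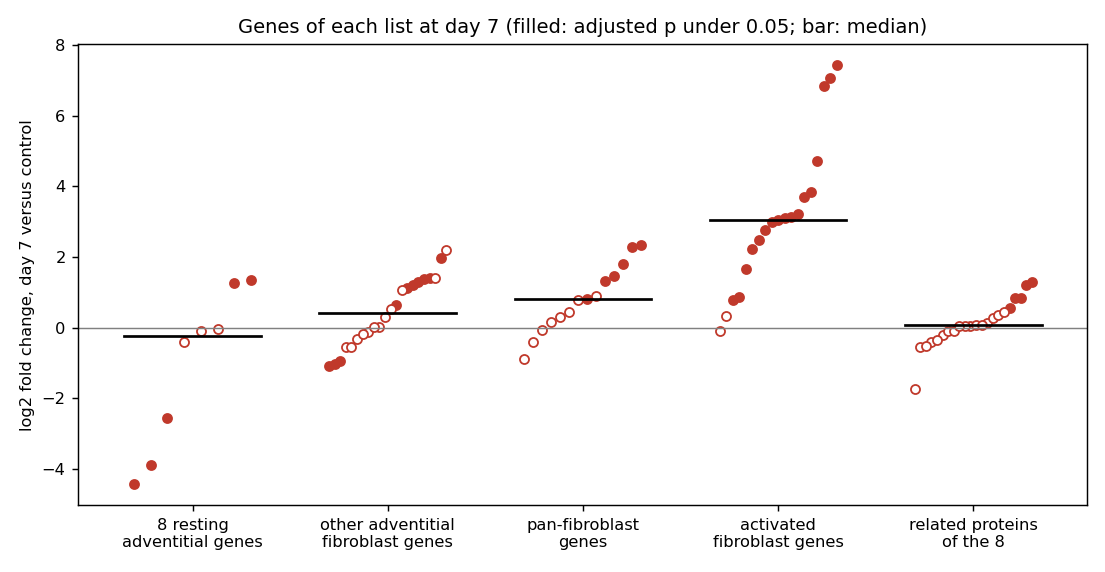
Log2 fold change at day 7 against control of each tested gene in the fibroblast lists and the list of related proteins beside the 8 members. Each point is a gene, filled where the adjusted p was under 0.05, and each bar a list's median, which is -0.25 for the members, 0.43 for other adventitial genes, 0.80 for genes shared by most fibroblasts and 3.06 for activated fibroblast genes. Members and lists were chosen with earlier results of these data known.

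Markers of other bladder cells changed in the same libraries. Macrophage markers rose in 10 of 10 tested genes at day 7 and again at day 28, and 3 rose at day 14. All 8 proliferation genes rose at day 7, 0 at day 14 and 6 at day 28. Urothelial markers fell in 7 of 10, 1 of 10 and 4 of 10 at the 3 times, while 1 rose at day 28. Of 10 smooth muscle markers, 4 rose and 4 fell at day 7, 0 changed at day 14 and 3 fell at day 28. Schwann cell markers fell in 4, 1 and 4 of 8, lymphatic endothelial markers rose in 4, 0 and 2 of 6, and of 6 pericyte markers 2 rose and 1 fell at day 7, 1 fell at day 14, and 1 rose and 1 fell at day 28. Mesothelial markers gave 0 calls of 8 at days 7 and 14, and 1 rose and 1 fell at day 28. The background for these counts was 15.6% of all genes called higher and 10.5% lower at day 7. It was 1.45% and 0.995% at day 14, and 11% and 7.51% at day 28. The part of the other bladder cells in the members' values was not tested.

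Adipocyte markers, among others, were high in 2 libraries. Adipoq, the fat-cell hormone adiponectin, was at 0.0696, 0.0364 and 0.357 CPM in controls, 43.9, 7.86 and 9.19 at day 7, 0.0364, 0.825 and 0.921 at day 14, and 0.3, 14.8 and 3.98 at day 28. Day 7 replicate 1 and day 28 replicate 2 were highest in their groups, also for Plin1, at 23.5 and 6.79 CPM. The same 2 libraries were highest in their groups for Pi16, Clec3b, Dpt and Cd34. Day 7 replicate 1 was also highest of its group for the summed lymphatic endothelial markers, at 700.4 CPM against 335 and 327, and smooth muscle markers, at 45204 against 27313 and 31329.5. It was highest too for the other adventitial, related-protein and endothelial lists. For the genes shared by most fibroblasts it was lowest, at 43358 CPM against 50849 and 47479, as it was for macrophage, mesothelial and proliferation markers. Day 28 replicate 2 was also highest of its group for the summed genes shared by most fibroblasts, at 21098 CPM against 15441 and 10126. It was so for endothelial markers too, at 806 against 631 and 525, but not for smooth muscle, urothelial, mesothelial or proliferation markers. The same library was also highest for the other adventitial, activated fibroblast, related-protein, lymphatic endothelial, pericyte, macrophage and Schwann cell lists. Of the whole list of 8 adipocyte markers, 6 rose and 1, Fabp4, fell at day 7, Fabp4 fell at day 14, and 3 rose at day 28. Among all genes, 15.6%, 1.45% and 11% were called higher at these times, and 10.5%, 0.995% and 7.51% lower. Fabp4, a fatty-acid-binding protein that endothelium also makes and that is named after its values were seen, was at 298 to 307 CPM in controls and 195 to 249 at day 7, and so weighs heavily in the list's sum. The summed level was 420 to 451 CPM in controls, 354 to 626 at day 7, 198 to 317 at day 14 and 459.6 to 523 at day 28. With both libraries left out, a choice made after seeing the data, Pi16 was still called at day 7 (1.07, adjusted p = 0.0244 in edgeR) but not at day 28 (0.63, 0.184). Clec3b was then called lower at day 7 (-0.84, 0.0095) and at day 28 (-0.84, 0.0158). Mamdc2, Myoc and Gsn gave larger falls of 5.82, 4.96 and 2.80 log2 at day 7. The part of fat tissue in the members' values was not tested.

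**Figure D5:**
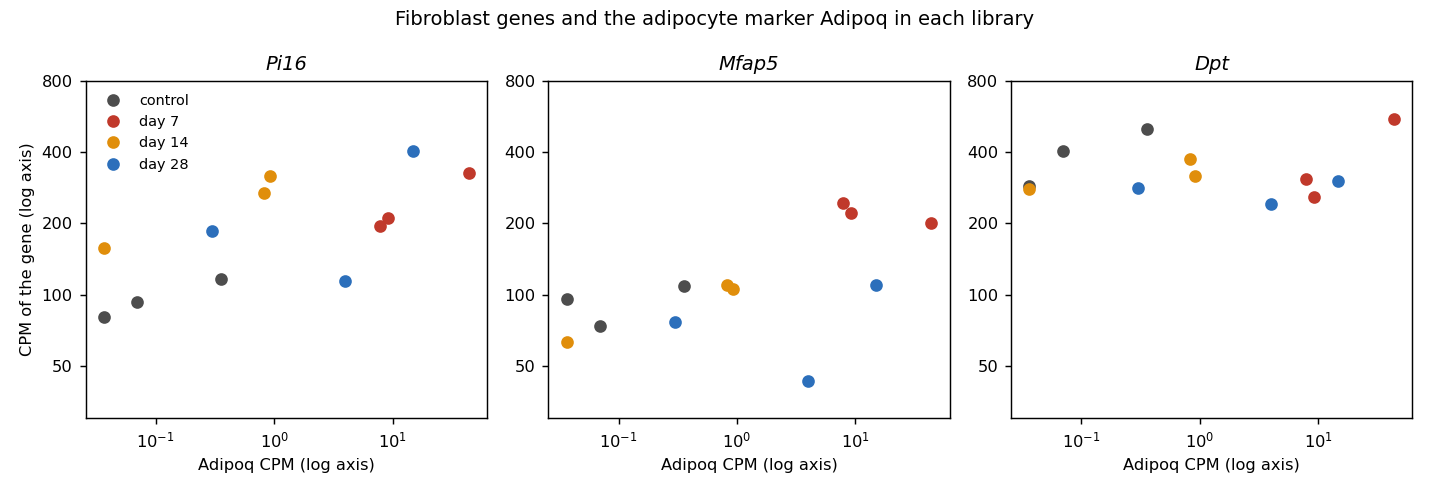
Level of Adipoq (CPM, log axis) against the levels of Pi16, Mfap5 and Dpt (CPM, log axis) in the 12 libraries, coloured by group. Day 7 replicate 1 (43.9 CPM Adipoq) and day 28 replicate 2 (14.8) are the highest of their groups for Pi16 and Dpt. For Mfap5 day 7 replicate 1 is the lowest of its group, at 199.9 CPM, while day 28 replicate 2 is the highest of its group, at 110.2.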

How the data were processed

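Ribosome-depleted total RNA of 12 bladder samples was sequenced as single-end reads of 50 bases, per the labels' protocols. The submitters' processing notes list rn6 as genome build and, as tools, HTSeq 0.11.2, HISAT2 2.1.0 and bcl2fastq. The authors deposited raw counts and TPM per gene, and counts per transcript, per the file headers. They also deposited tables of log2 fold changes of non-coding RNA with p-values and q-values, whose test, like the strand setting of the counting, was not stated there. Samples were matched to columns by the codes in their titles.

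The main test was edgeR's quasi-likelihood test (edgeR 4.0.16, R 4.3.3) on gene counts of all 12 libraries, with TMM scaling and filterByExpr (minimum count 10, total 15), leaving 17687 genes. SE is the log2 change divided by the square root of F. Replicates of every group differed by more than counting noise. Alternatives were DESeq2 1.42.0, its size factors, other filters, a stricter fold change, single groups, a replicate block and leaving out each library. Ratios and isoform reads were compared by two-sided exact permutation tests. CPM was set on the TMM-scaled library sizes. The members and lists were chosen with earlier results of these data known. All 8 members were to be named, with up to 4 genes of each list by smallest p at day 7, and the nearest genes by course.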

Additional observations from a re-analysis of the deposited data

Results flagged for a closer look

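In 6 instances the change against control differed between injury times, by the test of one injured group against another over the shared controls (edgeR, Benjamini-Hochberg adjustment over all genes tested). Mamdc2, Gsn and Mfap5 each differed both at day 14 and at day 28 from day 7. For Mamdc2 the difference was 2.74 log2 at day 14 and 1.86 at day 28, and for Gsn 1.89 and 1.32. For Mfap5 it was -1.25 and -1.53. The first 2 genes were thus lowest at day 7, and Mfap5 was highest there, in 3 of 3 libraries each. The background was 19.5% of all genes called from day 7 to day 14 and 18.7% from day 7 to day 28. For Mamdc2 the call at day 28 was lost in the fit to those groups alone. It was lost also without day 7 replicate 2 or 3, or day 28 replicate 1 or 3. For Mfap5 the call at day 14 was lost without day 7 replicate 2 or day 14 replicate 1. No explanation of the differences between injury times was tested.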

How the results depend on the processing

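Of 616 log2 changes of the members under the alternatives, over 48 pairs of member and comparison, 542 kept direction and side of the threshold, 14 came to pass, 27 ceased to pass and 33 changed sign. With each library left out in turn, the members called at day 7 against control numbered 3 to 5, at day 14 0 to 1, at day 28 3 to 4, from day 7 to 14 2 to 4, from day 14 to 28 0 to 1 and from day 7 to 28 2 to 4. Genes called of all tested then numbered 3061 to 4888, 16 to 504, 1971 to 3283, 1959 to 3431, 261 to 1120 and 1954 to 3275 in the same order. At day 14, 5 members were called in the fit to those groups alone and 3 in DESeq2, and of all genes 251 with a mean of at least 5 CPM and 1307 in DESeq2. With an absolute log2 change of at least 1 required, 2346 genes were called at day 7, 1835 at day 28, 1470 from day 7 to 14, 472 from day 14 to 28 and 1591 from day 7 to 28. Groups alone gave 2195 genes from day 7 to 14 and 42 from day 14 to 28, where leaving out both adipocyte-marker-rich libraries gave 234 and DESeq2 1601. The cause was not tested. Replicate numbers did not pair the samples: correlations of same-numbered deviations were -0.022 to 0.151, with 5 of 18 over 0.1. With the replicate block, 4788, 460, 3440, 3662, 827 and 3463 genes were called in the 6 comparisons, and 5, 1, 3, 3, 0 and 3 members, Pi16 at day 28 being lost. Changes of sign concerned values near 0 that were not called: Mfap5 at day 14 was -0.01 with the stricter filter and with the replicate block, Pi16 from day 7 to 14 -0.01 with the block, and without the adipocyte-marker-rich libraries Dpt from day 7 to 14 was 0.19 and Cd34 from day 14 to 28 -0.19. Leaving out 1 library each moved Cd34 over -0.33 to 0.10 at day 7 and -0.19 to 0.30 from day 14 to 28, Dpt over -0.50 to 0.11 at day 7 and -0.40 to 0.20 from day 7 to 14, and Clec3b over -0.43 to 0.26 from day 7 to 28. Mfap5 moved over -0.13 to 0.23 at day 14, -0.63 to 0.01 at day 28 and -0.64 to 0.00 from day 14 to 28, Myoc over -0.26 to 0.52 from day 14 to 28, and Pi16 over -0.19 to 0.29, -0.73 to 0.25 and -0.71 to 0.27 in the 3 comparisons between injury times. With 3 libraries a group, an exact permutation test cannot go below 0.1. Myoc and Mamdc2 rest on as few as 22 and 33 reads in a library at day 7.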
